A study of Homo sapiens with 10 samples.

Results

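Heat shock proteins and DNAJ proteins are the chaperones that keep other proteins folded. HSP70 proteins (the HSPA genes) bind unfolded stretches of a client protein, DNAJ proteins deliver clients and start the ATP cycle of HSP70, and HSPH1 and HSPA4 release the nucleotide that ends it. HSP90 proteins take over late folding steps of kinases and steroid receptors, HSPD1 and HSPE1 build the folding chamber of mitochondria, and the small HSPB proteins hold unfolded proteins until they can be refolded. The heat-induced members are switched on by HSF1, which binds heat shock elements, and those of the endoplasmic reticulum (ER) are switched on by the unfolded protein response. Tumor cells are known to depend on many of these chaperones, since they make proteins under stress.

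The members were the protein-coding genes of the deposited expression table whose symbol begins with HSPA, HSPB, HSPD, HSPE, HSPH, DNAJA, DNAJB or DNAJC and a digit, or with HSP90. They numbered 75 of 46427 genes listed, of which 19672 were protein-coding. There were 14 HSPA, 8 HSPB, 3 HSP90, 1 HSPD, 2 HSPE, 1 HSPH, 4 DNAJA, 13 DNAJB and 29 DNAJC genes. Levels are given as FPKM, which scale the fragments of a gene by its transcript length and by the depth of the library, and which can be compared between genes because they are per length. The FPKM reached 1 in some library for 61 members and in all 10 libraries for 51, and it reached 100 in all 10 for 8 members. No read was counted for HSPB9, DNAJB7 and DNAJB8 in any library.

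Poly(A) RNA was sequenced from 2 human lung adenocarcinoma cell lines, H460 and A549, for a study of drug resistance and of survival in suspension. H460 cells were sequenced as 3 parental libraries in 2D culture, 1 cisplatin-resistant (CR, 4 µM), 2 paclitaxel-resistant (PR, 5 nM) and 1 doxorubicin-resistant (DR, 0.5 µM) library and 1 tumor spheroid (TS) library, and A549 cells as 1 2D and 1 TS library. The resistant cells were those that attached again after 3 days with the drug and 3 days in fresh medium, so they were survivors of 1 exposure and not lines selected over many passages. The TS libraries, which the labels call CTC, came from cells grown on a non-adhesive coating in serum-free medium with B27 and growth factors, and the effects of detachment and of medium cannot be told apart. No label says whether replicates came from separate cultures, and p-values then measure the spread between these libraries, which may be technical.

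The libraries held between 59499787 and 89541774 reads on genes, and the members held between 0.775% (CR) and 2.06% (parental replicate 1) of the summed FPKM. Replicates of 1 group differed by more than sampling noise, with a mean chi-square per gene between 80.7 (PR pair) and 338.3 (a parental pair). The epithelial keratins KRT8 and KRT18 were high in all libraries, with at least 283 and 190.4 FPKM. KRT19, another keratin checked, was not high in all libraries and ranged from 3.57 to 738 FPKM, with a median of 358. The epithelial markers EPCAM and CDH1 did not exceed 1.04 and 11.9 FPKM, so the epithelial label rests on KRT8 and KRT18. The summed FPKM of 8 markers of leukocytes, endothelial cells and fibroblasts was between 15.3 and 19.5 in parental and between 38.1 and 60.7 in drug-resistant libraries, with 47.9 and 70.8 in the TS libraries, and 6 of the 8 stayed under an FPKM of 1 in all 3 of these groups. Of the 4 that could be tested 3 were called higher in drug-resistant cells. CD68, a lysosomal protein of macrophages and many other cells, made up most of that sum in parental and drug-resistant libraries, with 15.0 to 16.9 FPKM in parental and 30.7 to 57.9 in drug-resistant libraries, and it reached 69.8 in TS libraries. LUM, a fibroblast proteoglycan, reached 2.76, 6.99 and 26.6 FPKM in parental, drug-resistant and TS libraries. The part of these markers in the results was not tested. Fewer cells with a transcript and less transcript per cell cannot be told apart in these bulk libraries.

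The sequences below are stretches of 30 bases taken from the 250 bases upstream of RefSeq gene starts in GRCh38.p14, 5′ to 3′ on the gene's strand. They show matches of letters to the kinds of element through which chaperone genes are known to be switched on, with every match in capitals. Searched on both strands were GAANNTTC and TTCNNGAA, the 2 phases of the heat shock element, which can overlap each other, and the ER stress element, in which CCAAT and CCACG are set 9 bases apart.
HSPA1A (chr6:31815426-31815455, + strand): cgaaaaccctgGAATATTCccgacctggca
HSPA1B (chr6:31827622-31827651, + strand): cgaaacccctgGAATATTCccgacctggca
HSPA8 (chr11:123062345-123062374, - strand): gcgagcttGAAAGTTCCAGAAcgctgcggt
HSP90AA1 (chr14:102087104-102087133, - strand): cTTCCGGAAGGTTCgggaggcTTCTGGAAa
HSP90AB1 (chr6:44247770-44247799, + strand): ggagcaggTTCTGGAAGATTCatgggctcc
DNAJB1 (chr19:14518456-14518485, - strand): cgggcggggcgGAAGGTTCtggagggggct
HSPD1 (chr2:197500061-197500090, - strand): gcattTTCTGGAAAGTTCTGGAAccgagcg
HSPA5 (chr9:125241385-125241414, - strand): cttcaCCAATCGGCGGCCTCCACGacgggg
HSP90B1 (chr12:103930211-103930240, + strand): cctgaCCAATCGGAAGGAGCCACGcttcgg

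Of 67 members with such a window, 20 (29.9%) held at least 1 phase of the heat shock element, and so did 14.0% of all 27305 genes with a window. The phase GAANNTTC was found for 16 members (23.9%, against 7.05% of genes) and TTCNNGAA for 11 (16.4%, against 8.12%). The ER stress element was found for HSPA5 and HSP90B1 alone among the members (2.99%) and for 0.0916% of genes. Of the 9 stretches shown, 5 (HSPA8, HSP90AA1, HSP90AB1, DNAJB1 and HSPD1) lie inside the span of the RefSeq gene, upstream of an inner start and not of the outermost one. HSPD1 and HSPE1 are read in opposite directions from starts that lie 104 bases apart, at 197500274 and 197500379 of chromosome 2. A match of letters is a description and shows no binding.

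In the 2D cells of both lines the same few chaperones led the family. In parental H460 cells the order of mean FPKM (± SD, n = 3) began with HSP90AA1 at 1114 ± 564, HSPA8 at 1050.4 ± 538, HSPD1 at 978 ± 261, HSP90AB1 at 929 ± 258 and HSPE1 at 683 ± 274, and these neighbours did not differ beyond their spread. They were followed by the ER chaperones HSP90B1, at 333 ± 79.3, and HSPA5, at 317 ± 72.3, and by the mitochondrial HSP70 protein HSPA9 at 281 ± 69.6. In the A549 2D library the first 6 members by FPKM were HSPA8 (1063), HSP90AA1 (809), HSP90AB1 (700.5), HSPD1 (469.8), HSPE1 (313) and HSP90B1 (308).

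The first question was how chaperone genes differ between drug-resistant and parental H460 cells. The 4 drug-resistant libraries were compared as 1 group with the 3 parental libraries by edgeR's quasi-likelihood test on the counts, with p-values adjusted over the 18398 genes tested (Benjamini-Hochberg), and a gene was called at an adjusted p under 0.05. The other 10 members had too few reads to be tested, with at most 13 reads in any library of this fit (HSPB7 in PR replicate 2). Of the 65 members tested, 18 (27.7%) were called, 6 higher and 12 lower in drug-resistant cells. Among all genes tested 33.8% were called, 18.4% higher and 15.4% lower, so chaperones were not called more often than other genes. The median log2 fold change was -0.30 over the members and 0.06 over all genes, and 43 of 65 members had a negative value. With upper-quartile scaling, which moved the median of all genes to 0.23, 8 members were called higher and 10 lower.

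Both parts of the mitochondrial chaperonin fell in drug-resistant cells. HSPD1 (HSP60, the wall of the folding chamber) had 1042, 1201 and 692 FPKM in the parental libraries, 279 in CR, 397 and 257 in PR and 433 in DR cells. HSPE1 (HSP10, its lid) had 814, 867 and 369 FPKM in parental, 231 in CR, 253 and 226 in PR and 321 in DR cells. All 4 drug-resistant libraries were below all 3 parental libraries for both genes. HSPD1 fell by 1.61 on the log2 scale (SE 0.26, 3.06-fold, adjusted p = 0.00159) and HSPE1 fell by 1.50 (SE 0.27, 2.82-fold, adjusted p = 0.00282, edgeR). Their ratio was between 1.13 and 1.87 in the 10 libraries. HSPD1 has 15 pseudogene rows in the table and HSPE1 20, which took at most 2.15% and 0.57% of the reads of gene and pseudogenes together, and reads shared with such copies may have been split. The readthrough gene HSPE1-MOB4 also starts at the HSPE1 start and is counted apart. Its levels were 7.41, 9.20 and 0.70 FPKM in parental and 0.61 to 4.10 in drug-resistant libraries, which overlap.

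Other mitochondrial members changed less. HSPA9 (mortalin, which pulls proteins through the inner membrane) had 333, 307 and 202 FPKM in parental, 157 in CR, 187 and 162 in PR and 201 in DR cells. It fell by 0.77 (SE 0.22, adjusted p = 0.0218, edgeR), with DR cells almost level with parental replicate 3, and lost its call without parental replicate 1, parental replicate 2 or PR replicate 2 (adjusted p up to 0.0755). DNAJC19, a J protein of the import motor, fell by 0.73 (adjusted p = 0.0132), and lost its call without parental replicate 2 (adjusted p = 0.0522). DNAJC4 rose by 0.88 (SE 0.26, adjusted p = 0.0241), from 3.23, 4.83 and 6.11 FPKM in parental to between 8.11 and 10.2 in drug-resistant cells, and lost its call in 5 of 14 alternatives, among them leaving out parental replicate 1, parental replicate 2, CR or DR (adjusted p up to 0.0858). In all, 1 of 10 mitochondrial members rose, 4 fell and 5 did not pass the test, among them DNAJA3 (-0.40) and DNAJC15 (-0.10), beside 18.4% of all genes higher and 15.4% lower.

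Both cytosolic HSP90 genes were called lower. HSP90AB1, the constitutive cytosolic HSP90, had 1135, 1011 and 640.2 FPKM in parental, 367 in CR, 562 and 464 in PR and 539.5 in DR cells, and no drug-resistant library reached a parental one. It fell by 1.05 (SE 0.24, 2.07-fold, adjusted p = 0.00809). HSP90AA1, the heat-induced form, had 1616, 1222 and 504 FPKM in parental, 384 in CR, 690.5 and 446 in PR and 607 in DR cells. Parental replicate 3 lay inside the drug-resistant range, and the fall of 1.16 (SE 0.35, adjusted p = 0.0282) lost its call in 6 of 14 alternatives, among them leaving out parental replicate 1, parental replicate 2, CR or PR replicate 2 (adjusted p up to 0.129). HSPA14, a ribosome-bound HSP70 relative, fell by 1.51 (SE 0.27, adjusted p = 0.00229), from 18.7, 19.5 and 8.29 FPKM to 4.76 in CR, 7.48 and 6.25 in PR and 4.97 in DR cells. DNAJC7, a cochaperone that links HSP70 and HSP90, fell by 0.69 (adjusted p = 0.0229), and lost its call without either of parental replicates 1 and 2 or either PR replicate. Of the 12 constitutive cytosolic members, 11 were tested, 1 rose, 3 fell and 7 did not pass, beside 18.4% of all genes higher and 15.4% lower.

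DNAJC9, a J protein that also chaperones histones H3 and H4, had the lowest fold change of all members. Its FPKM was 34.0, 30.8 and 17.4 in parental, 8.30 in CR, 10.4 and 8.40 in PR and 7.56 in DR cells, and the groups did not overlap. It fell by 1.77 (SE 0.22, 3.40-fold, adjusted p = 0.000422, edgeR). DNAJC21, which acts in ribosome assembly in the nucleolus and cytosol, fell by 0.50 (adjusted p = 0.0321), and its groups overlapped: PR replicate 1, at 9.67 FPKM, lay above parental replicate 3, at 9.34. Its call was lost in 9 of 14 alternatives, among them leaving out parental replicate 1, parental replicate 2, CR, PR replicate 2 or DR, and its adjusted p over the alternatives was highest with limma, at 0.129. HSPB11, now named IFT25 and part of the transport train of cilia rather than a chaperone, fell by 0.86 (adjusted p = 0.0236), and lost its call in 6 of 14, among them leaving out parental replicates 1 or 2 or either PR replicate (adjusted p up to 0.108). DNAJC13, an endosomal J protein, fell by 0.74 (adjusted p = 0.0224), with 8.76, 7.39 and 7.28 FPKM in parental and 3.65 to 6.55 in drug-resistant libraries, and its call was lost without parental replicate 1 (adjusted p = 0.0701) and, separately, with the form of the library name as a term.

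**Figure D1:**
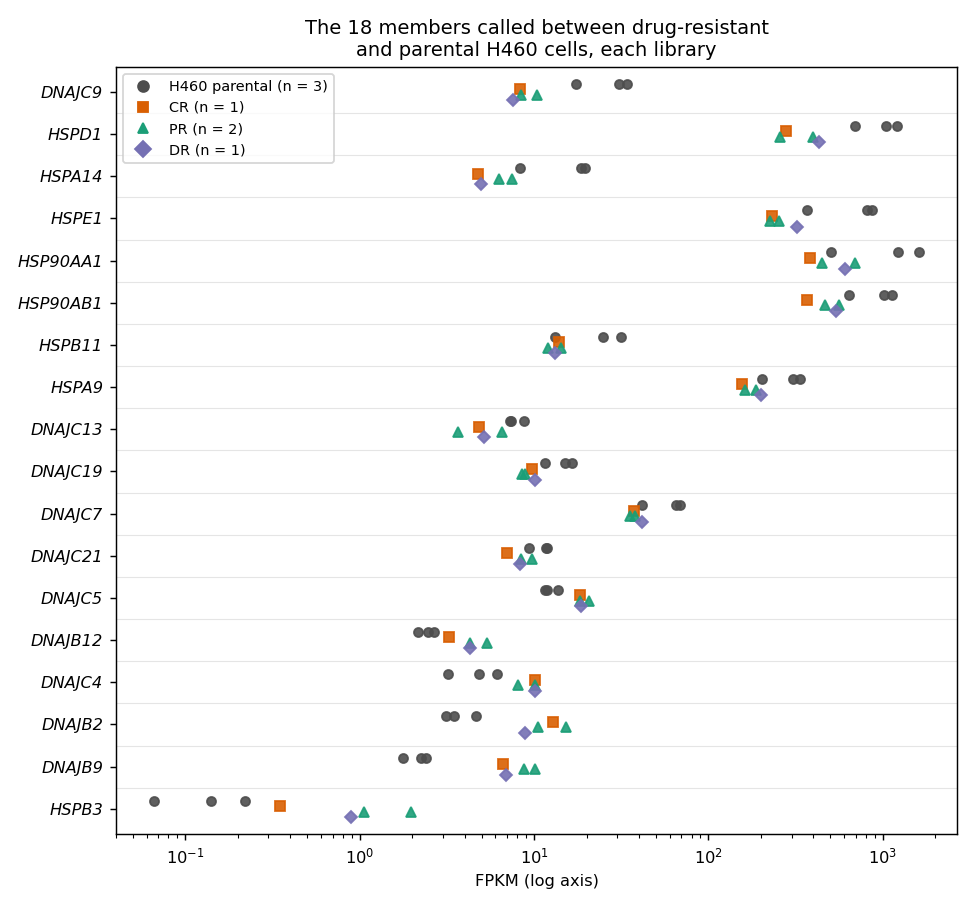
FPKM (log axis) of the 18 members called between drug-resistant and parental H460 cells, 1 point per library, ordered from the lowest log2 fold change (DNAJC9, -1.77) to the highest (HSPB3, 2.62). For HSPD1, HSPE1, HSP90AB1 and DNAJC9 the parental circles lie to the right of all drug-resistant symbols, and for DNAJB9 and DNAJB2 they lie to the left.

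All 6 members that rose in drug-resistant cells had an FPKM of 20.7 or below in the 7 libraries. DNAJB9 (ERdj4, an ER J protein that presents misfolded proteins for degradation and holds the stress sensor IRE1 inactive) had 2.25, 2.39 and 1.77 FPKM in parental, 6.65 in CR, 10.1 and 8.76 in PR and 6.86 in DR cells. Each drug-resistant library was above each parental one, and the rise was 1.80 (SE 0.20, 3.49-fold, adjusted p = 0.00027, edgeR). DNAJB2, a J protein that directs clients to the proteasome and is known best in neurons, had 3.12, 4.64 and 3.45 FPKM in parental, 12.9 in CR, 10.5 and 15.2 in PR and 8.88 in DR cells. It rose by 1.59 (SE 0.22, adjusted p = 0.000629), again with no overlap. DNAJB12, an ER membrane J protein, rose by 0.70 (adjusted p = 0.0175), and lost its call without PR replicate 2 (adjusted p = 0.0533). DNAJC5 (cysteine string protein of secretory vesicles) rose by 0.47 (adjusted p = 0.0426), from 13.7, 11.6 and 11.9 FPKM to between 18.2 and 20.7, without overlap, although its call was lost in 8 of 14 alternatives, among them leaving out any 1 library other than parental replicate 1 (adjusted p up to 0.138).

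HSPB3, a small heat shock protein of muscle, rose by 2.62 (SE 0.65, adjusted p = 0.0119), but from 4, 8 and 14 reads in the parental libraries to 22 in CR, 61 and 90 in PR and 61 in DR cells. Its FPKM stayed at 1.98 or below, and its call was lost without parental replicate 2 (adjusted p = 0.0506). The closely related HSPB2 had 8, 22 and 22 reads in parental, 32 in CR, 65 and 79 in PR and 38 in DR cells, and its log2 fold change of 1.50 (adjusted p = 0.0644) did not pass. HSPB2 (chr11:111912734-111914093 in RefSeq, GRCh38.p14) lies within the span of CRYAB (chr11:111908564-111923740), which encodes the small heat shock protein alpha-B-crystallin and is outside the symbol rule. CRYAB rose by 4.06 (SE 0.48, adjusted p = 0.000358), from 11.2, 9.01 and 10.8 FPKM in parental to 93.1 in CR, 249 and 332 in PR and 87.7 in DR cells. Whether the counting used strand is not given in the sources used here, so reads of HSPB2 and CRYAB may not have been told apart.

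HSPB1 and HSPB8, the HSPB members with the highest mean FPKM in parental H460 cells, did not pass the test. HSPB1 (HSP27) had 60.4, 61.6 and 67.0 FPKM in parental, 77.7 in CR, 87.6 and 98.5 in PR and 106 in DR cells. All drug-resistant libraries lay above all parental ones, with a log2 fold change of 0.43 (SE 0.17, adjusted p = 0.0756), which passed with upper-quartile scaling (0.61, adjusted p = 0.0216), with library totals alone and with limma. HSPB8, which works with BAG3 in selective autophagy, overlapped between the groups, with 53.2, 32.4 and 22.2 FPKM in parental and 33.3 to 51.0 in drug-resistant libraries. Of the 8 HSPB genes 6 could be tested. HSPB3 was the 1 that rose, and HSPB11, named above as no chaperone, the 1 that fell, beside 18.4% of all genes higher and 15.4% lower.

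Most heat-induced cytosolic chaperones varied widely within the parental group, and 8 of the 10 on that list differed more than 2-fold between the highest and the lowest parental library, among them HSPA6, which stayed at 0.649 FPKM or below there. HSPA1A and HSPA1B (the inducible HSP70 pair) had 258 and 239 FPKM in parental replicate 1, 62.9 and 57.5 in replicate 2 and 44.6 and 41.8 in replicate 3. In the drug-resistant libraries HSPA1A had 46.4 FPKM in CR, 129.6 and 104 in PR and 56.9 in DR cells, all inside the parental range. The log2 fold change of HSPA1A was therefore -0.67 with an SE of 0.54 (adjusted p = 0.359), and that of HSPA1B -0.80 (adjusted p = 0.274). Both genes were close to each other in all 10 libraries, at a ratio between 1.06 and 1.21. Their coding sequences differ at 4 of 1926 bases and their 250 upstream bases are 94.4% identical, so the counting may have divided their reads and their values should be read as 1 pair.

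Parental replicate 1 was the highest and replicate 3 the lowest for 9 of the 10 heat-induced members. The exception was HSPB1, with 60.4, 61.6 and 67.0 FPKM (1.11-fold), and HSPA4L, an HSP110 relative, differed by 1.84-fold. HSPH1 (HSP110) had 58.7, 33.1 and 14.8 FPKM in parental replicates 1 to 3, and DNAJB1 (HSP40) had 68.1, 42.2 and 24.4. HSPA8 (HSC70), the constitutive partner, which is also counted among the 10, had 1639, 927 and 585. DNAJA1 had 139.5, 92.7 and 44.2. Over the 55 members that reached an FPKM of 1 in all 3 parental libraries, the highest library was a median of 1.73 times the lowest, against 1.51 over 10930 genes, and 17 members (30.9%) differed more than 2-fold, against 16.4% of genes. Replicate 3 was the lowest library for 44 of the 55 (80%), against 53.3% of genes. Replicate 1 was the highest for 25 (45.5%) and replicate 2 for 26 (47.3%), against 38.0% and 40.0% of genes. The joint order, replicate 1 highest and replicate 3 lowest, was not counted over all genes. Members with the widest spread included HSPA1A (5.77-fold), HSPA1B (5.72-fold), HSPH1 (3.97-fold), HSP90AA1 (3.21-fold) and HSPA8 (2.80-fold). Of the 10 heat-induced members only HSP90AA1 was called (lower), beside 18.4% of all genes higher and 15.4% lower. The median of the 10 was -0.47. HSF1 itself, the factor behind the heat shock response, was not called, with 17.6, 13.6 and 18.1 FPKM in parental and 17.3 to 18.2 in drug-resistant libraries.

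**Figure D2:**
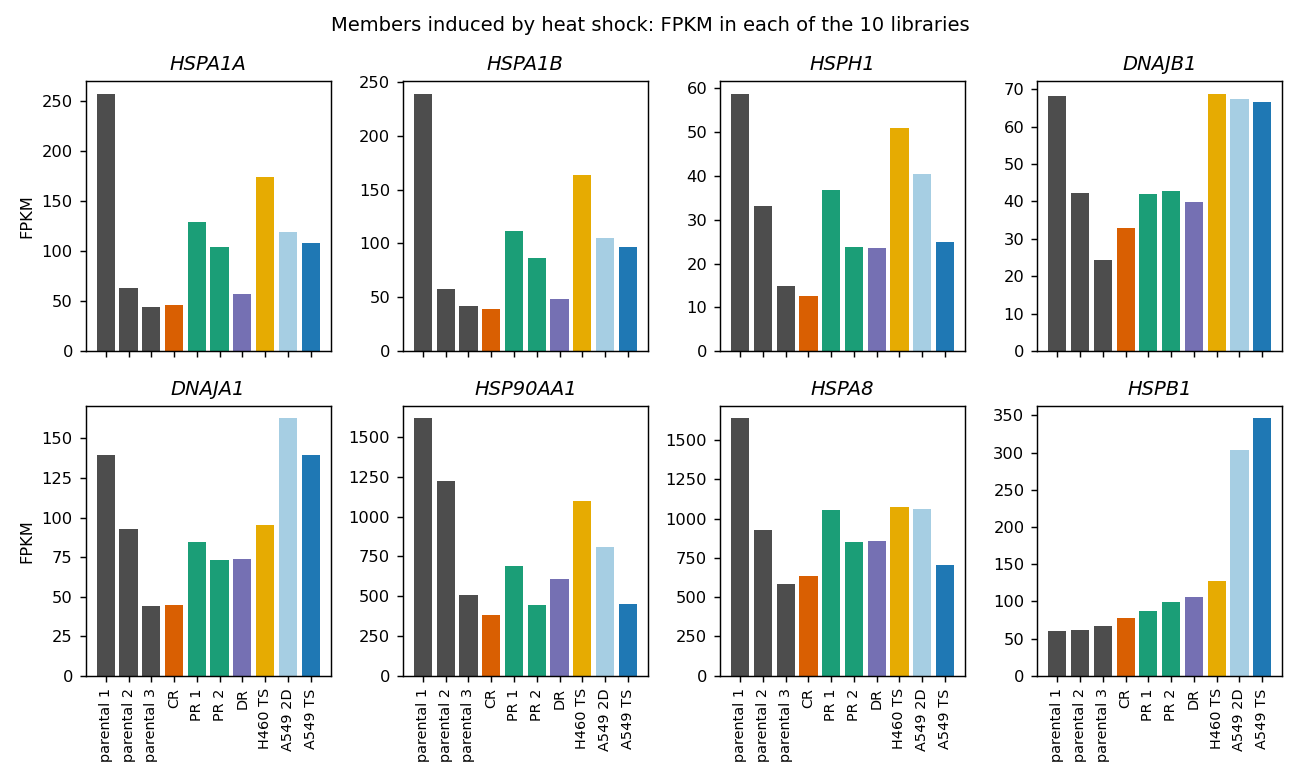
FPKM of 8 members of the heat-induced and related cytosolic group, 1 bar per library (groups by color, no error bars because each bar is 1 library). Parental replicate 1 is the highest H460 library for 6 of the 8, with HSPA1A at 258, 62.9 and 44.6 FPKM in parental replicates 1 to 3, and HSPB1 is higher in both A549 libraries (303 and 346) than in all H460 libraries.

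In the ER, DNAJB9 rose and the most abundant chaperones did not pass the test. HSPA5 (BiP, the ER HSP70) had 354, 364 and 234 FPKM in parental, 223 in CR, 194 and 178 in PR and 275 in DR cells, with a log2 fold change of -0.63 (SE 0.24, adjusted p = 0.0682). HSP90B1 (GRP94, the ER HSP90) had 309, 422 and 269 FPKM in parental, 414 in CR, 272 and 221 in PR and 414 in DR cells, and its value of -0.09 (SE 0.29, adjusted p = 0.832) was well within its spread. DNAJB11 (ERdj3, a soluble cofactor of BiP) had a value of -0.47 (adjusted p = 0.132). Of the 14 ER members, 2 rose (DNAJB9 and DNAJB12), none fell and 12 did not pass, with a median of -0.03. Among all genes 18.4% were called higher and 15.4% lower, with a median of 0.06. HSPA5 and HSP90B1, whose upstream regions hold the ER stress element printed above, were among the 12.

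**Figure D3:**
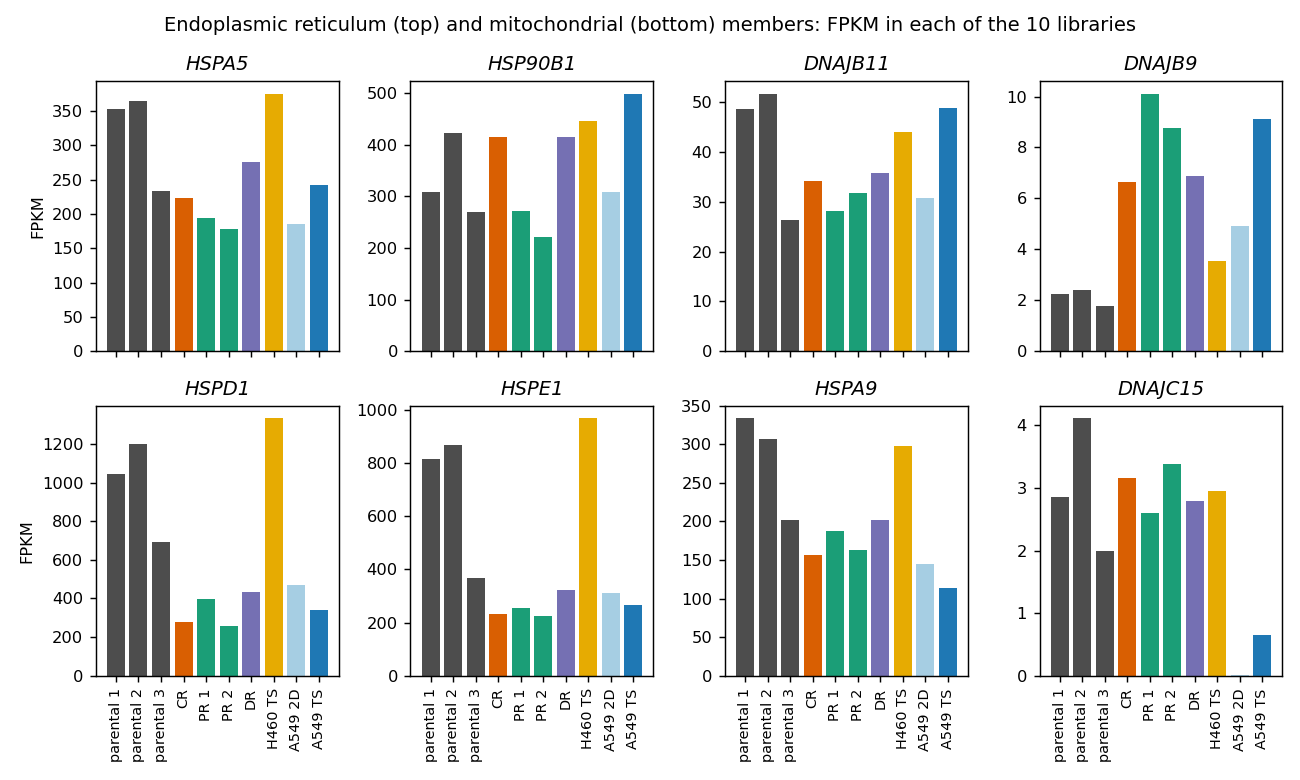
FPKM of 4 ER members (top) and 4 mitochondrial members (bottom), 1 bar per library without error bars. DNAJB9 is between 1.77 and 2.39 FPKM in the parental libraries and between 6.65 and 10.1 in the drug-resistant ones, HSPD1 and HSPE1 are lowest in drug-resistant and A549 libraries, and DNAJC15 is at 0.004 FPKM in A549 2D cells.

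Without a test, 17 of 60 members that reached an FPKM of 1 in any of the 7 libraries (28.3%) had drug-resistant libraries all on 1 side of the parental ones, 9 higher and 8 lower. Among all genes that share was 39.0%, with 22.1% higher and 16.9% lower. The library names take 2 forms, with and without a hyphen, which divide parental replicates 1 and 3 and PR replicate 1 from parental replicate 2, CR, PR replicate 2 and DR. What the forms stand for is not stated. Within each form, the sign of the difference was kept for all 18 members called between drug-resistant and parental cells. They were called from these same 7 libraries, so a kept sign is no separate check of the calls. With the form as a term in the edgeR fit, 13 of the 18 kept their call. Values are given first without and then with a hyphen, on the log2(FPKM + 1) scale. They were 1.89 and 1.31 for DNAJB9, 1.42 and 1.21 for DNAJB2, -1.09 and -1.93 for HSPD1, and -1.11 and -1.76 for HSPE1. For DNAJC9 they were -1.15 and -1.81, for HSPA14 -0.67 and -1.71, and for HSP90AB1 -0.60 and -1.16. These 7 members were the ones called in all 14 alternatives, each library left out included, but a kept sign was not particular to them. DNAJC21, whose call was often lost, was at -0.11 and -0.51. For HSP90AA1 the 2 values were -0.39 and -1.38, and for HSPH1 0.30 and -0.75.

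The PR cells, with 2 libraries, were also compared alone with the 3 parental libraries (edgeR, 19430 genes). Of 65 members, 14 were called, 5 higher and 9 lower, against 28.1% of all genes, 17.4% higher and 10.7% lower. Called members comprised HSPB3 (3.03), HSPB2 (1.95), DNAJB9 (1.92), DNAJB2 (1.61) and DNAJB12 (0.78) on the higher side. On the lower side they were HSPD1 (-1.79), DNAJC9 (-1.76), HSPE1 (-1.73), HSPA14 (-1.39), HSP90AB1 (-1.08), HSPA5 (-0.99), DNAJC19 (-0.95), HSPA9 (-0.91) and DNAJC7 (-0.88). HSPA5, lower here by 1.99-fold (adjusted p = 0.0195), had not passed when CR and DR cells were included, and whether PR differs from them was not tested. Only DNAJB9 was called in all 13 alternatives (adjusted p up to 0.0162). Without PR replicate 2 it was the 1 member called, and without parental replicate 2 or PR replicate 1 the count was 6.

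CR, PR and DR cells were set against the mean log2(FPKM + 1) of the same 3 parental libraries, which they share, and counted past a 2-fold difference with no test. DNAJB9 was higher in all 3 (1.29 in CR, 1.74 in PR and 1.33 in DR), and so was DNAJB2 (1.56, 1.54 and 1.07). HSPD1 (-1.77, -1.57 and -1.14) and DNAJC9 (-1.56, -1.40 and -1.68) were lower in all 3. HSPE1 was at -1.46, -1.41 and -0.99. In CR cells 11 of 58 members were past 2-fold, 2 higher and 9 lower, against 12.9% of genes, 5.84% higher and 7.05% lower. HSP90AA1 (-1.38), HSP90AB1 (-1.30), HSPH1 (-1.22) and HSPA1B (-1.08) were among the lower ones in CR but not in PR or DR. HSPA14 was past 2-fold in CR (-1.43) and DR (-1.38), as was HSPE1-MOB4 (-1.71 and -1.16). In PR cells 6 of 60 members were past 2-fold, 3 higher and 3 lower (genes 13.2%, 7.62% higher and 5.62% lower), with HSPB3 (1.12) as the third higher one. In DR cells 6 of 58 were, 2 higher and 4 lower (genes 11.4%, 5.76% higher and 5.68% lower). The CR count depended on the control, since it was 18 against parental replicate 1 alone and 3 against replicate 3 alone.

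Genes that work with these chaperones are outside the symbol rule and were taken from 4 lists, whose counts stand beside 18.4% of all genes called higher and 15.4% lower. Of 25 cochaperones of HSP70 and HSP90, 2 rose and 10 fell in drug-resistant cells. FKBP5 fell by 2.65 (SE 0.28, adjusted p = 0.000235), from 13.8, 12.4 and 9.50 FPKM to between 1.17 and 2.77, and FKBP4 fell by 1.34 (SE 0.29, adjusted p = 0.00619). Both are HSP90-bound prolyl isomerases of steroid receptor complexes. The 2 that rose were CRYAB and AHSA2P (0.98), whose symbol marks it as a pseudogene of an HSP90 activator family. AHSA1 of that family was at -0.50 (adjusted p = 0.182, edgeR) and was not called. Of 14 subunits of the cytosolic chaperonin TRiC and of prefoldin, 11 fell, none rose and 3 did not pass, and all 8 TRiC subunits of the list were among the 11 (the lowest, CCT5, at -1.22, adjusted p = 0.00206). Of 22 genes of the unfolded protein response, 2 rose (DDIT3, the transcription factor CHOP, at 1.11, and SYVN1 at 0.96) and 4 fell, with MANF, a secreted ER stress protein, lowest at -1.30 (adjusted p = 0.0038). None of 3 heat shock factors was called. In PR cells alone, where 17.4% of all genes were higher and 10.7% lower, the counts of these 4 lists were 1 higher and 8 lower, 0 and 10, 1 and 6, and 0 and 0, with FKBP5 at -2.79, MANF at -1.62, TRAP1 (mitochondrial HSP90) at -1.48, DDIT3 at 1.30 and CRYAB at 4.61.

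The second question was how chaperone genes differ between TS and 2D cells. With both lines in 1 edgeR fit and the line as a covariate, none of 67 members was called, and 35 of 18372 genes (0.191%) were, 0.147% higher and 0.0435% lower. At an unadjusted p under 0.05 there were 6 members (8.96%, against 7.36% of genes), and DESeq2 called 1, DNAJB9. In simulated data of this design edgeR recovered 3% of genes changed 2-fold and 76% of those changed 4-fold, so a 2-fold change could rarely have been called. DNAJB9 had a log2 fold change of 0.82 (SE 0.25, adjusted p = 0.397). Its FPKM was 3.53 in H460 TS against 1.77 to 2.39 in parental cells, and 9.10 in A549 TS against 4.93 in A549 2D cells.

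Each TS library was then compared with the 2D cells of its own line, without a test. In H460 TS cells 2 of 58 members were more than 2-fold apart, 1 in each direction (genes 3.89%, 1.93% higher and 1.97% lower). HSPB1 was higher, at 127.5 FPKM against 60.4 to 67.0, and DNAJC18, an ER membrane J protein, was lower, at 0.573 against 1.82 to 2.48. In A549 TS cells 2 of 56 members were past 2-fold, again 1 in each direction (genes 9.73%, 6.7% higher and 3.02% lower). DNAJC12, a cochaperone of the aromatic amino acid hydroxylases, was higher, at 18.0 against 5.38 FPKM in A549 2D cells, and HSPA2, the HSP70 protein abundant in testis, was lower, at 13.2 against 28.3. Against single parental libraries the H460 count went from 1 (replicate 1) to 11 (replicate 3).

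In TS cells HSPD1 and HSPE1 were higher than in 2D cells of the H460 line and lower than in those of the A549 line, while HSP90B1 and HSPA5 were higher in both. Of 55 members compared in both lines, 25 (45.5%) were higher in H460 TS cells and lower in A549 TS cells, against 31.4% of genes. For 17 of the 25 the H460 TS level fell between those of parental libraries, so that the H460 direction depends on the library it is set against, and for 8 it lay above all 3. HSPD1 was at 1332 FPKM in H460 TS cells, above its 3 parental libraries, and at 340.0 in A549 TS against 469.8 in A549 2D cells. HSPE1 was at 967 in H460 TS, above the parental libraries, and at 265 against 313 in A549 cells. HSPH1 (51.0 FPKM in H460 TS; 25.0 against 40.4 in A549) and HSP90AA1 (1095; 452 against 809) lay within the H460 parental range. Some ER members were among the 14 higher in both lines (25.5%, genes 21.3%). HSP90B1 was at 445 FPKM in H460 TS against at most 422 in parental cells and at 498 in A549 TS against 308 in 2D cells. HSPA5 was at 375 against at most 364, and 242 against 185. The ER member DNAJC18 was lower in both, by -1.04 in H460 and -0.14 in A549 on the log2(FPKM + 1) scale. No difference within a line was tested, since each line had 1 TS library. In the fit of both lines, 10 of the 14 members on the ER list had a positive value and 4 a negative one, with none called.

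**Figure D4:**
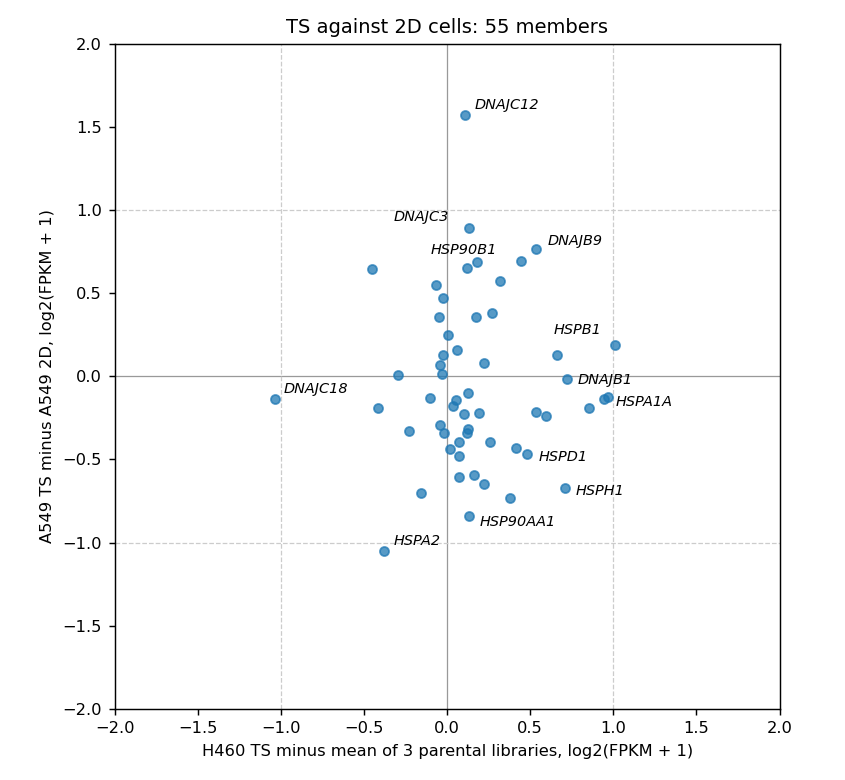
Difference between TS and 2D cells on the log2(FPKM + 1) scale for 55 members, H460 on the horizontal and A549 on the vertical axis (1 TS library per line, 3 parental libraries averaged for H460, dashed lines at 2-fold). DNAJB9, HSP90B1 and DNAJC3 lie in the upper right, HSPD1, HSPH1 and HSP90AA1 in the lower right, and DNAJC12 (1.57 in A549) lies above the 2-fold line.

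The 2D cells of the lines differed in several members, with 12 of 59 more than 2-fold apart, 4 higher and 8 lower in A549 cells (genes 18.9%, 11.2% higher and 7.73% lower). HSPA2 was at 28.3 FPKM in A549 2D against 1.28, 2.02 and 1.31 in parental H460 cells. HSPB1 was at 303 against 60.4 to 67.0, DNAJB12 at 14.1 against 2.15 to 2.68 and DNAJC22, a J protein of clathrin uptake, at 12.9 against 0.272 to 1.07. These 4 were also above all 3 parental libraries one by one. On the other side, HSPB6, a small heat shock protein of muscle, was at 0.169 FPKM in A549 2D against 7.90 to 20.8 in H460 cells, HSPB8 at 4.87 against 22.2 to 53.2, and DNAJC6, the auxilin that uncoats clathrin, at 1.75 against 5.19 to 8.49. Against the parental mean, HSPD1 and HSPE1 were lower in A549 by 1.02 and 1.03 on the log2(FPKM + 1) scale, and DNAJC12 and HSPE1-MOB4 by 1.33 and 1.81. HSPD1 was at 469.8 FPKM against 692 to 1201, and HSPE1 at 313 against 369 to 867. HSPE1-MOB4 was at 0.503 against 0.696 to 9.20, and DNAJC12 at 5.38 against 11.2 to 21.1. For HSPD1, HSPE1 and HSPE1-MOB4 the A549 level was within 2-fold of parental replicate 3. There was 1 A549 2D library, so the difference has no replicate check.

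DNAJC15, an inner-membrane J protein also named methylation-controlled J protein, was counted with 1328 to 2265 reads in all 8 H460 libraries but with 2 reads in A549 2D cells (0.004 FPKM). In A549 TS cells it had 390 reads (0.643 FPKM). Per total reads that was 179.9 times the 2D count, with an exact 95% counting interval from 49.5 to 1491, which covers counting error of these 2 libraries and no spread between cultures. The difference lay outside the 2-fold count, because both values were under an FPKM of 1. In the fit of both lines DNAJC15 had a log2 fold change of 2.36 (adjusted p = 1.0), since H460 TS cells, at 2.94 FPKM, lay inside the parental range of 2.00 to 4.11.

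**Figure D5:**
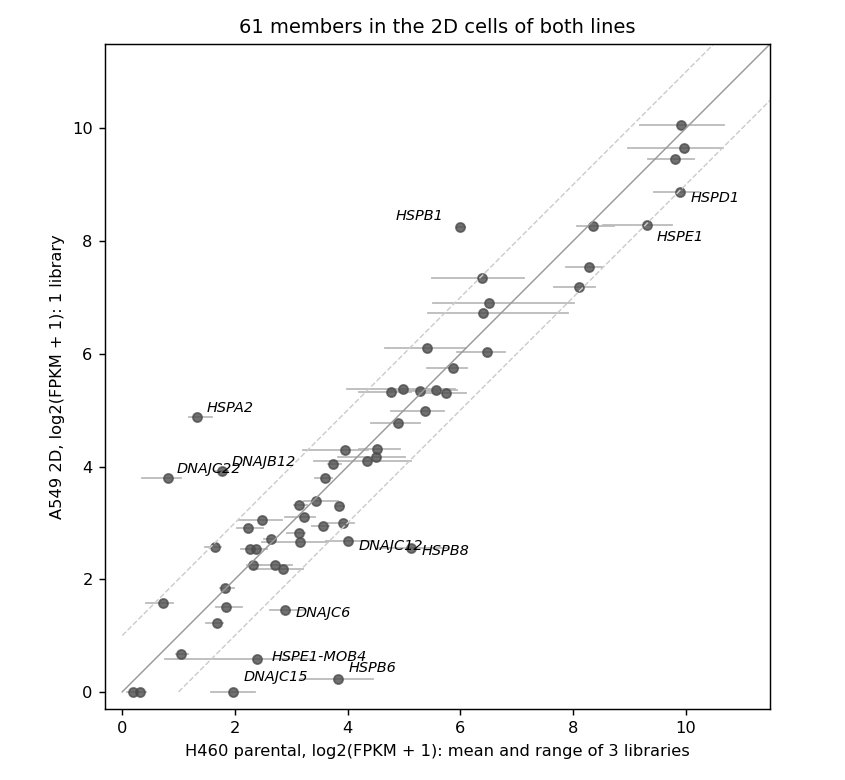
Levels of the 61 members that reached an FPKM of 1 in any library, parental H460 on the horizontal axis (point, mean; line, range of 3 libraries) and A549 2D on the vertical axis (1 library), both as log2(FPKM + 1) with equality drawn and 2-fold dashed. HSPA2, DNAJC22, HSPB1 and DNAJB12 lie above the upper dashed line, and HSPB6, HSPB8, DNAJC15 and DNAJC6 below the lower one.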

How the data were processed

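Gene expression of 10 libraries of poly(A) RNA was analysed. The authors deposited a read count per gene without normalization, and an FPKM and a TPM normalized for transcript length and depth. TPM values were not used. Per the submitters' processing notes bcl2fastq 1.8.4, Trimmomatic, HISAT2 2.1.0, StringTie 2.1.3b and GRCh38 were used. How shared reads were counted is not given in the sources used here.

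Counts as deposited were tested with edgeR 4.0.16 (R 4.3.3; TMM, filterByExpr, robust quasi-likelihood fit, two-sided, Benjamini-Hochberg adjustment over all genes tested, threshold 0.05), without a replicate block. Differences from FPKM values used log2(FPKM + 1), which understates changes of low genes, for genes that reached an FPKM of 1 in any library compared. Alternatives were DESeq2 1.42.0, limma 3.58.1 on log2(FPKM + 1), other scalings and filters, each library left out, a replicate block and the form of the library name as a term. In simulated data with 200 changed genes, edgeR recovered 40% of 2-fold and 95% of 4-fold changes between drug-resistant and parental cells (19226 genes simulated), and 19% and 94% between PR and parental cells (18179 genes). In the data 33.8% and 28.1% of genes were called in these fits, a far larger share than was changed in the simulation. Recovery in the data may therefore differ from these values.

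The members, gene lists and tests were chosen with earlier results of these data known. Named are 16 members chosen by role, up to 10 members called in each direction per fit, members past 2-fold in comparisons without a test, and in the 4 lists of other genes the 3 highest and 3 lowest called. DNAJC15 and members named for their parental spread or for their direction in TS cells, with SYVN1, CCT5 and HSF1, were chosen after their values were seen. Positions and upstream sequences are from RefSeq for GRCh38.p14, matched by gene ID, for 67 members. Reads are not independent molecules, so intervals cover counting error only. Figures and other values used Python 3.11.15, pandas 2.3.3, scipy 1.17.1, biopython 1.88 and matplotlib 3.10.9.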

Additional observations from a re-analysis of the deposited data

Results flagged for a closer look

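Among 58 ends checked (the highest and the lowest of the 4 drug-resistant libraries for 29 named members), 2 stood apart by Dixon's test: DNAJC4 was lowest in PR replicate 1, at 8.11 FPKM against 10.1 to 10.2 in the other 3, and DNAJC5 was highest in PR replicate 2, at 20.7 FPKM against 18.2 to 18.5. Chance marks about 1 in 20 such groups. For 9 of the 55 members compared in both lines the TS differences from 2D cells had opposite signs on the log2(FPKM + 1) scale. In these 9 the H460 TS cells lay outside the range of the 3 parental libraries. The share of all genes under this rule was not counted, and the differences were not tested. HSPD1 was higher by 0.48 in H460 and at -0.47 in A549, HSPE1 was at 0.60 and -0.24, DNAJB1 at 0.72 and -0.016, DNAJC21 at 0.13 and -0.10, DNAJA3 at 0.41 and -0.43, DNAJB6 at 0.85 and -0.19, HSPA4L at 0.54 and -0.22, and HSPA12A at 0.12 and -0.32. DNAJC17 went the other way, at -0.29 in H460, below all parental libraries, and 0.0066 in A549. The A549 TS and 2D levels were almost equal for DNAJB1 (66.6 and 67.4 FPKM) and DNAJC17 (1.854 and 1.841), so their A549 signs carry little weight.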

How the results depend on the processing

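The number of members called between drug-resistant and parental cells was 18, and ranged from 9 (without parental replicate 2) to 26 (without parental replicate 3) when 1 library was left out. DNAJB2, DNAJB9, HSP90AB1, HSPD1, HSPE1, DNAJC9 and HSPA14 were called in all 14 alternatives. The number for PR against parental cells was 14, and ranged from 1 (without PR replicate 2) to 22 (without parental replicate 3), and it was 9 with limma. The replicate block of replicates 1 and 2 called 26 members, and the same 4 libraries unpaired 22. Differences between replicates 1 and 2 of PR and of parental cells correlated at r = 0.156 over 12593 genes, and with 2 pairs this was not taken as a pairing. Libraries of the same number also share the form of the library name. HSPA1A, at -0.28 between PR and parental cells (adjusted p = 0.764), was at 0.92 (adjusted p = 0.033) without parental replicate 1, which held its highest parental level, and ranged from -0.66 to 0.92 without 1 library. Genes called for PR fell from 5466 to 3026 with limma and ranged from 1008 to 6591 without 1 library. In the TS fit 0 members were called, 1 by DESeq2 (DNAJB9, adjusted p = 0.0218), and between 0 and 1 without 1 library (DNAJC15 without H460 TS, adjusted p = 0.00903). Genes called there were 35, then 70 without a filter, 527 with DESeq2 and between 5 and 338 without 1 library, where an arm of 1 sample is assumed to vary like the others. Members past 2-fold against 1 parental library alone numbered 18 and 3 (CR, replicates 1 and 3), 14 (DR, replicate 1), 14 and 10 (PR, replicates 1 and 2), and 1, 6 and 11 (H460 TS), and with upper-quartile scaling 10 in DR, 1 in H460 TS and 1 in A549 TS cells. The causes of these shifts were not tested. The TS and line comparisons rest on 1 library per group, and 10 members were too low to test.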
